A study of Rattus norvegicus with 8 samples.

Results

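The matrix metalloproteinases (MMPs) are described here as 10 genes, Mmp2, Mmp3, Mmp8, Mmp9, Mmp11, Mmp12, Mmp13, Mmp14, Mmp19 and Mmp27. They were taken by symbol from a table of read counts for 37209 genes, and each of the 10 symbols had 1 row. The counts came from the carotid arteries of male Sprague-Dawley rats of about 400 g, with no age, transgene or mutant allele named in the labels. Intimal injury was made in the left artery with a 2 F angioplasty balloon catheter of 0.67 mm, and RNA was taken at 2 weeks. Right arteries, which had no injury, were the controls. They are described as self-controls, that is, arteries of the operated rats, so the groups are not independent animals. There were 4 injured and 4 control arteries, each sequenced as its own library. The labels do not say that equal replicate numbers mark the same rat, so the main tests did not pair the arteries. A text attached to the libraries speaks of prefrontal cortex at RNA extraction, whereas all other labels name the carotid artery. Of 10 contractile smooth muscle markers, all were detected, with a summed level of 11506 to 54585 CPM per artery. CPM is the read count per 1000000 counts of the library, scaled with edgeR's TMM factors.

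MMPs are zinc-dependent proteases that cut matrix proteins outside the cell. Most are secreted as inactive zymogens and are activated by removal of a propeptide, often by plasmin or by another MMP, while some carry a furin site and leave the cell active. Tissue inhibitors of metalloproteinases (TIMPs) bind the active enzymes. In injured arteries these proteases are known for loosening the matrix around smooth muscle cells and for the breakdown of elastin by macrophages. The abundance of an mRNA does not measure the activity of the enzyme.

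Total counts lay between 11459632 and 16658089 per artery, and 3 counts, the smallest level taken as measurable, corresponded to 0.168 to 0.246 CPM, a floor for counting error only. Control artery 4 stood apart. Across 14359 genes its log2 CPM correlated at 0.830 to 0.852 with the remaining control arteries, which correlated at 0.976 to 0.978 among themselves. The 9 sympathetic neuron markers summed to 9908 CPM in control artery 4 against at most 6.31 CPM in any other control, and to 1579 CPM in injured artery 3 against 11.2 to 128 CPM in the other injured arteries. Contractile markers summed to 18828 CPM in control artery 4 and to 40667 to 54585 CPM in the other controls. Values that changed in call or direction, or by more than 1.5 times, without control artery 4 are given both ways. In whole arteries, more cells of a type and more RNA per cell cannot be told apart.

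Of the 10 MMP genes, 4 rose and 1 fell after injury, 1 was tested and did not pass, and 4 had too few counts for the test. A gene was called, and is described as risen or fallen, at a false discovery rate (FDR, the p from the quasi-likelihood test of edgeR adjusted by Benjamini-Hochberg over all tested genes) under 0.05 and a fold change above 2. log2FC stands for the log2 fold change of injured over control arteries, and SE for its standard error. In that comparison 10.9% of the 14359 tested genes were called, 8.31% higher and 2.57% lower. Mmp9 and Mmp12 had enough counts only through the injured arteries, and Mmp27 through the control arteries, so the number of tested members that were called has no weight of its own. The median log2FC of the 6 tested members was 1.38, beside -0.06 over all tested genes, and has no weight for the same reason. Without control artery 4, 6 members were called, the 5 and Mmp3. In that fit 2398 of 14758 tested genes were called, against 1562 with all arteries.

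**Figure D1:**
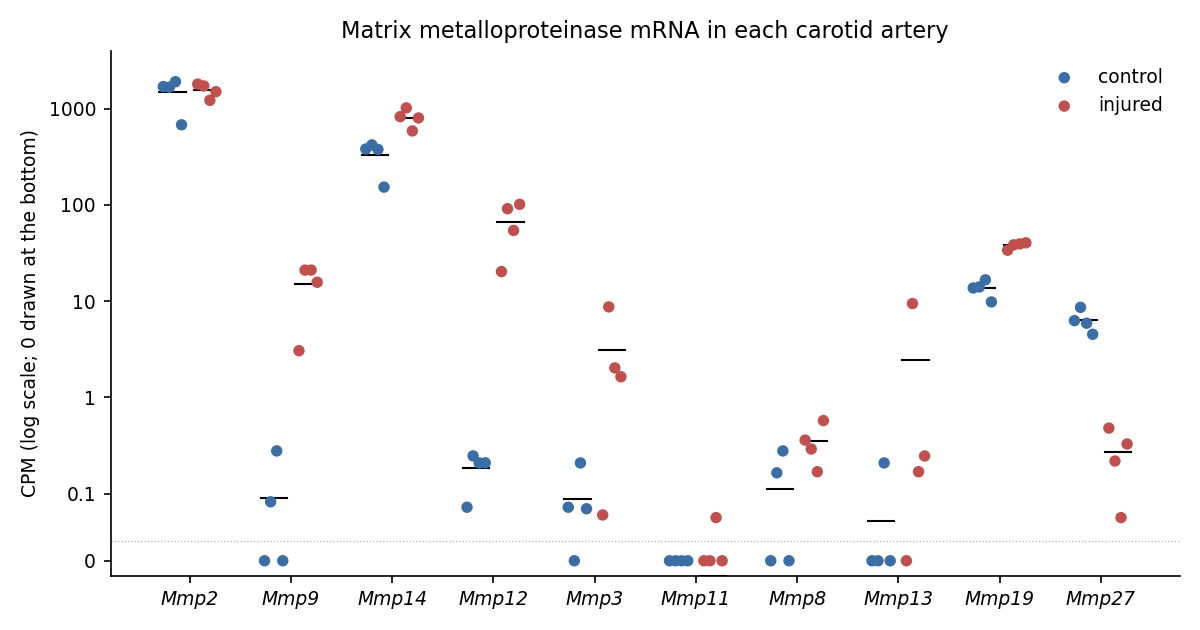
CPM of the 10 MMP genes on a log axis, 1 point per artery (blue, 4 control; red, 4 injured), with the group mean as a black line where it is above 0 and a level of 0 drawn at the bottom. The groups are separate for Mmp9, Mmp12, Mmp14, Mmp19 and Mmp27 and overlap for the others. The share of all genes with separate groups was not computed, so the number of separate members has no weight of its own. Heights of different genes are not comparable because CPM is not corrected for gene length.

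Mmp2 and Mmp9 encode the gelatinases, which digest denatured collagen and collagen IV of basement membranes. The Mmp2 level was 1697, 1674, 1907 and 680.4 CPM in control arteries 1 to 4. It was 1799.6, 1722, 1222 and 1501 CPM in injured arteries 1 to 4. The groups overlapped, and the low value in the controls was that of artery 4. Mmp2 had a log2FC of 0.07 ± 0.31 (SE, edgeR FDR 0.905), so any change of Mmp2 was not resolved beyond the spread between arteries. Without control artery 4 it was -0.18 (edgeR FDR 0.404).

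Mmp9 was close to undetected in the control arteries and present in every injured artery. The controls held 0, 1, 4 and 0 counts. The injured arteries were at 3.05, 21.0, 21.0 and 15.7 CPM, artery 1 being the low one. All injured values lay above all controls. Its log2FC was 7.26 ± 1.02 (SE, edgeR FDR 0.0027). With so few control counts this fitted value depends on small numbers. The ratio of pooled rates was 164, with an exact 95% interval of 70.2 to 507 that covers counting error only. Mmp9 was called in each of the 8 fits that left out 1 artery. Without control artery 3, which held 4 of the 5 control counts, the log2FC was 8.81, and it lay between 6.85 and 7.59 in the remaining fits of this kind.

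Mmp14 encodes the membrane-type enzyme MT1-MMP, a collagenase anchored at the cell surface that also activates the Mmp2 zymogen. Its level was 381, 420.1, 377 and 153 CPM in control arteries 1 to 4 and 826, 1019, 587 and 801 CPM in injured arteries 1 to 4. The lowest injured value was above the highest control. Mean levels were 333 ± 121 CPM in the controls and 808 ± 177 CPM in the injured group (SD, n = 4 each). This gave a log2FC of 1.28 ± 0.32 (SE, edgeR FDR 0.0305). Of the 5 calls, this was the one that changed most often when 1 artery was dropped. It was kept when control artery 4 (log2FC 1.04, edgeR FDR 0.00428) or injured artery 3 (1.40, edgeR FDR 0.033) was dropped. Dropping any of the other 6 ended it, with an edgeR FDR of 0.0534 to 0.0903 and a log2FC of 1.15 to 1.41.

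Mmp12 encodes macrophage metalloelastase, which degrades elastin. The controls held 1, 3, 3 and 3 counts, that is, 0.0720 to 0.246 CPM. The level was 20.3, 91.3, 54.2 and 101.3 CPM in injured arteries 1 to 4. Artery 1 was again the lowest of the injured group and artery 4 the highest. Mmp12 had the largest log2FC of the 6 tested members, at 8.45 ± 0.67 (SE, edgeR FDR 0.000298), except without control artery 3, where it had 8.51 and Mmp9 8.81. Over the pooled counts, 10 of them in the controls, the ratio of rates was 345, with an exact 95% interval of 187 to 719 for counting error only. In the 8 fits without 1 artery, Mmp12 was called each time, with 8.17 to 8.75.

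Mmp3 and Mmp11 encode the stromelysins 1 and 3. Stromelysin 1 has a broad range of matrix substrates and activates other MMP zymogens, whereas stromelysin 3 carries a furin site. Mmp3 had 1, 0, 3 and 1 counts in the controls and 1, 120, 36 and 20 counts in injured arteries 1 to 4, so injured artery 1 resembled a control and artery 2 was at 8.70 CPM. The groups overlapped through injured artery 1. The difference in mean log2(CPM + 0.5) was 1.98 (two-sided exact permutation test, p = 0.114, where 4 arteries against 4 allow no p below 0.0286). The pooled rates differed by a ratio of 32.1, with an exact 95% interval of 13.5 to 100.1 for counting error. DESeq2, which tests genes of lower counts, called Mmp3 (log2FC 5.11, DESeq2 adjusted p 0.000554). Unfiltered counts gave 4.97 (edgeR FDR 0.0519). With 1 artery dropped, edgeR kept Mmp3 after its filter in 5 of the 8 fits. It was called without injured artery 1, at 5.38 (edgeR FDR 0.0132), where the permutation difference was 2.66 (exact p = 0.0286), and without control artery 4, at 4.86 (edgeR FDR 0.0462). Mmp11 had a single count in injured artery 3 and none elsewhere. This cannot be read as absence, because Smarcb1, the next gene in the RefSeq annotation of GRCr8 and a chromatin remodelling subunit used by nearly all cells, had at most 3 counts in any artery.

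Mmp8 and Mmp13 encode collagenases that cleave fibrillar collagen, the first stored in neutrophil granules and the second known from cartilage and bone. Mmp8 had 0, 2, 4 and 0 counts in the controls and 6, 4, 3 and 7 in the injured arteries. These values overlapped. The difference in mean log2(CPM + 0.5) was 0.48 (two-sided exact permutation test, p = 0.0571). Mmp13 rested on 1 library. It had 130 counts in injured artery 2, or 9.43 CPM, and at most 3 counts in each of the other 7 arteries. The difference in its mean log2(CPM + 0.5) was 1.20 (two-sided exact permutation test, p = 0.257), and without injured artery 2 it was 0.21.

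Mmp19, a secreted enzyme that acts on basement membrane and other matrix proteins, had the tightest values of the called genes. Its level was 13.7, 14.02, 16.6 and 9.80 CPM in control arteries 1 to 4 and 33.8, 38.4, 39.3 and 40.3 CPM in injured arteries 1 to 4. No injured artery came near a control, and the injured values differed by a factor of at most 1.19. Mmp19 had a log2FC of 1.49 ± 0.17 (SE, edgeR FDR 0.00123). It stayed between 1.36 and 1.598 when 1 artery was left out, and all 8 fits called it.

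Mmp27 was the 1 member that fell. Little is known of its substrates. Its level was 6.27, 8.61, 5.89 and 4.52 CPM in control arteries 1 to 4. In injured arteries 1 to 4 there were 8, 3, 1 and 4 counts, or 0.478, 0.218, 0.0562 and 0.327 CPM. Every control lay above every injured artery, control artery 4 included. This was a log2FC of -4.52 ± 0.52 (SE, edgeR FDR 0.00119), which is a level 22.9 times lower. It ranged from -4.98 to -4.16 with 1 artery left out, and Mmp27 was called in all 8 of these fits.

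**Figure D2:**
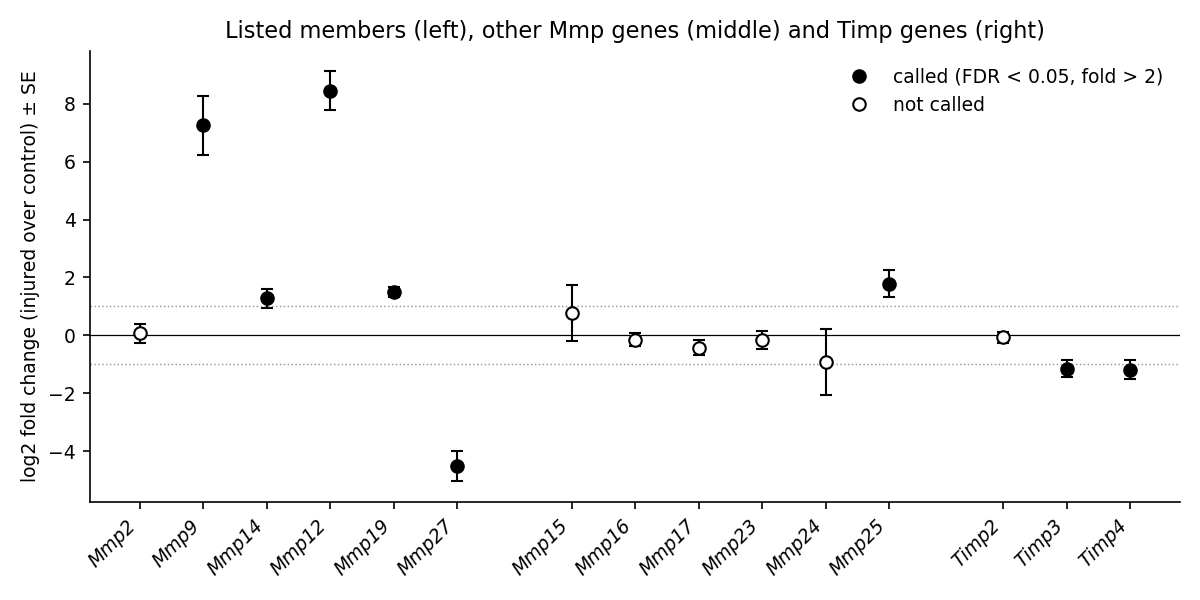
Log2 fold change of injured over control arteries with its standard error for the 6 tested members, 6 other Mmp genes and 3 Timp genes. Filled points were called, open points were not, and dotted lines mark a fold change of 2. Mmp12 at 8.45 and Mmp9 at 7.26 lie above all others shown, and Mmp27 at -4.52 below.

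Position was not used to choose the genes. In the RefSeq annotation of GRCr8, 5 of the 10 members, Mmp13, Mmp12, Mmp3, Mmp8 and Mmp27, lie in this order in a run of 10 protein-coding Mmp genes on chromosome 8, with no other protein-coding gene between them. Within this run Mmp12 rose and Mmp27 fell, so genes of the same run moved in opposite directions. The remaining 8 did not reach the count filter. Of these, Mmp1, Mmp1b and Mmp20 were listed at 0 in all arteries, and Mmp10 and Mmp7 reached at most 5 and 12 counts. The gene before the run, Dcun1d5, had 29.9 CPM in the controls and 29.3 CPM after injury on average (log2FC -0.03, edgeR FDR 0.919, and 0.079 without control artery 4, called in neither fit).

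**Figure D3:**
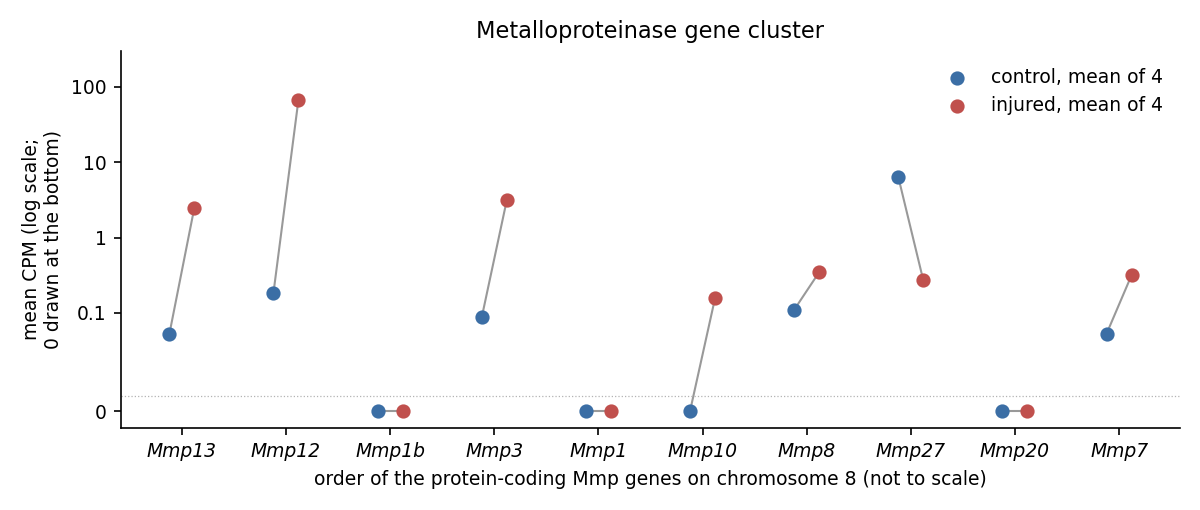
Mean CPM in 4 control (blue) and 4 injured (red) arteries for the 10 protein-coding Mmp genes of chromosome 8, in their order along the chromosome, on a log axis with 0 drawn at the bottom. Mmp12 reached 66.8 CPM after injury, Mmp27 dropped from 6.32 to 0.27 CPM, and Mmp1b, Mmp1 and Mmp20 were at 0.

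Promoters of 4 genes of this run are shown, those of Mmp12 and Mmp27 because they moved in opposite directions, and those of Mmp3 and Mmp13 because nearly all of their counts lay in injured arteries. RefSeq promoter sequences, from 250 bases before the annotated start to 50 after it, were matched for 6 of the 10 members, Mmp3, Mmp8, Mmp11, Mmp12, Mmp13 and Mmp27. Mmp2, Mmp9, Mmp14 and Mmp19 had no entry. Capitals mark TGANTCA, the site of the AP-1 transcription factor, searched on both strands.
Mmp12, higher after injury, GRCr8 chr8:12866402-12866701, + strand: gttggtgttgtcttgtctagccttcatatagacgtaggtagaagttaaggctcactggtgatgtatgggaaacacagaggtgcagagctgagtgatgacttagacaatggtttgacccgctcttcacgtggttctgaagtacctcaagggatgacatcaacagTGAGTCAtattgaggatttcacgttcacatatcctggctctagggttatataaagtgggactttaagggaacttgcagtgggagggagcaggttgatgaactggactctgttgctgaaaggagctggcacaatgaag
Mmp3, at most 3 counts in any control artery, GRCr8 chr8:12925031-12925330, + strand: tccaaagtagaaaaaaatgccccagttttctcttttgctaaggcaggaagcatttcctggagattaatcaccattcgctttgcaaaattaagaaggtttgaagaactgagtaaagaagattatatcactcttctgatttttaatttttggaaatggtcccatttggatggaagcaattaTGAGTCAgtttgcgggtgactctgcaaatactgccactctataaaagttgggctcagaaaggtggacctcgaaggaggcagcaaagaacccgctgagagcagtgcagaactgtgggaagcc
Mmp13, at 9.43 CPM in injured artery 2, GRCr8 chr8:12782579-12782878, + strand: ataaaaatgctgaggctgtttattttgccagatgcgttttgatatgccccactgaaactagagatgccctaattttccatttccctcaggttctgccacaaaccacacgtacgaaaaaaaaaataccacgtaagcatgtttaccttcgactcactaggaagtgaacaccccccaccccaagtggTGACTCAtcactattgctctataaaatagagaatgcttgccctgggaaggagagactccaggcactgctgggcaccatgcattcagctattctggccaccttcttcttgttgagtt
Mmp27, lower after injury, GRCr8 chr8:13030502-13030801, + strand: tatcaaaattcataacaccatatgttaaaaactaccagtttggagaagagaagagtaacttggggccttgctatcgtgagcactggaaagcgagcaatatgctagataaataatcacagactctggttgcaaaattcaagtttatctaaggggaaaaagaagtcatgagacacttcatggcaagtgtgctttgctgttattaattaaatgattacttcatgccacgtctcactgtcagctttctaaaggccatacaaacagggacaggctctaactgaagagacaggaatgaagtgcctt
The AP-1 letters occurred once in each of the promoters of Mmp12, Mmp3 and Mmp13, beginning 87, 71 and 66 bases before the start, and in none of those of Mmp8, Mmp11 and Mmp27. They occurred in 7.33% of 33469 rat promoters of the same length. TATAAA, read on both strands, occurred in the promoters of Mmp12, Mmp3, Mmp13 and Mmp8, 39, 32, 47 and 30 bases before the start, and in 14.2% of all promoters. AGGAAG, an Ets factor site, occurred in those of Mmp3, Mmp13 and Mmp8 and in 34.5% of all promoters. The Mmp27 promoter held none of these 3 motifs within the window. Such matches are a description of letters and do not show binding.

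For genes known to regulate MMP transcription, 21 of 24 had enough counts, 8 were higher and 0 lower, with a median log2FC of 0.80. Spi1, the myeloid factor PU.1, had a log2FC of 3.14, Il1b, the cytokine interleukin-1 beta, 4.48, and Etv4, an Ets factor, 3.57, or 4.18 without control artery 4. Runx2, a bone and cartilage factor, had 2.40, Runx1 2.28 and the monocyte chemokine Ccl2 1.85, and the other called genes were Tgfb1 and Spp1. None of the 6 AP-1 subunit genes on the list was called. Their log2FC values were -1.40 for Fos (SE 0.89), 0.58 for Fosl1 (0.71), 0.16 for Fosl2 (0.33), -0.47 for Jun (0.68), 0.80 for Junb (0.33) and -0.41 for Jund (0.35). That of Fosl2 was -0.099 without control artery 4, where none of the 6 was called either. Among activators and binding partners, 14 of 18 were tested, 3 rose and 1 fell, and the median log2FC was 0.20. Plau, the urokinase-type plasminogen activator, rose from 3.34 to 5.20 CPM in the controls to 23.9 to 39.7 CPM after injury (log2FC 2.72). Its receptor Plaur had 2.17 and Lcn2, whose protein forms a complex with MMP9, had 1.89. Cav1, which encodes the caveolar coat protein caveolin-1, had -1.48. Furin, the convertase for Mmp11 and Mmp14, had 0.45 (edgeR FDR 0.0243), short of the required fold change. Cd44, a receptor that holds MMP9 at the cell surface, had 1.11 (edgeR FDR 0.242), and was called without control artery 4 at 2.03 (edgeR FDR 0.00262).

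Among inhibitors, 6 of 8 were tested, 0 rose and 2 fell, and the median log2FC was -0.48. Tfpi2 and Pcolce had log2FC values above 0 and were called neither with nor without control artery 4. A2m, which was not tested, was at 0 in every control and at 0.0725 to 2.58 CPM in the injured arteries. Timp3, an inhibitor bound to the matrix, was at 2545, 2551, 3165 and 1325 CPM in control arteries 1 to 4 and 1489, 927, 1028 and 866 CPM in injured arteries 1 to 4. Control artery 4 lay below injured artery 1, and the groups overlapped there. Timp3 had a log2FC of -1.15 ± 0.30 (SE, edgeR FDR 0.0335). It was called when control artery 4 (-1.36) or injured artery 1 (-1.35) was dropped, and in none of the other 6 such fits. Timp4 had a log2FC of -1.18 ± 0.34 (SE, edgeR FDR 0.0476), and its call ended when any artery but control artery 1, control artery 4 or injured artery 4 was dropped (edgeR FDR up to 0.132). Neither was called with upper-quartile factors or library totals only as scaling, or with no filter on low counts, and Timp4 was not called with at least 10 counts in each sample (edgeR FDR 0.0508 to 0.0804 in these fits). Timp2, which takes part in activating the Mmp2 zymogen on Mmp14, was at 644 to 1096 CPM in the controls and 852 to 994 CPM after injury, with a log2FC of -0.07 ± 0.19 (SE), or -0.22 without control artery 4 (not called). Reck, a membrane-anchored inhibitor, had -0.90 (edgeR FDR 0.0317) and did not reach the fold change, but was called without control artery 4 at -1.09 (edgeR FDR 0.000556). Timp1 was listed at 0 in every artery and gives no information.

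Ratios of counts within 1 library do not depend on how libraries are scaled, so 4 of them were compared with two-sided exact permutation tests and Benjamini-Hochberg adjustment over the 4. The log2 ratio of Mmp14 to Timp2 was -1.60 ± 0.33 (SD, n = 4) in the controls and -0.21 ± 0.24 (SD, n = 4) after injury, a difference of 1.39 (adjusted p = 0.0381, exact permutation test). Mmp14 to Timp3 moved from -2.88 ± 0.25 to -0.41 ± 0.50 (SD, n = 4 each), a difference of 2.47 (adjusted p = 0.0381, exact permutation test). Mmp14 to Mmp2 moved from -2.16 ± 0.14 to -0.96 ± 0.16 (SD, n = 4 each), a difference of 1.20 (adjusted p = 0.0381, exact permutation test). In all 3 the 4 injured arteries lay above the 4 controls, and the unadjusted p was 0.0286, the smallest possible. All 3 share the Mmp14 counts, and Mmp14 was itself called (log2FC 1.28), as was Timp3 (-1.15). Timp2 and Mmp2 had log2FC values of -0.07 and 0.07, so these ratios are not results separate from the rise of Mmp14. Control artery 4, although low in Mmp14 and Mmp2, had a Mmp14 to Mmp2 ratio of 0.225, inside the range of 0.198 to 0.251 of the other controls, while the injured arteries had 0.459, 0.592, 0.481 and 0.533. The ratio of Mmp2 to Timp2 overlapped between the groups, with a log2 difference of 0.19 (adjusted p = 0.429, exact permutation test), or 0.035 without control artery 4. These are ratios of counts of different genes without correction for length, so their change between groups can be read and their size cannot.

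**Figure D4:**
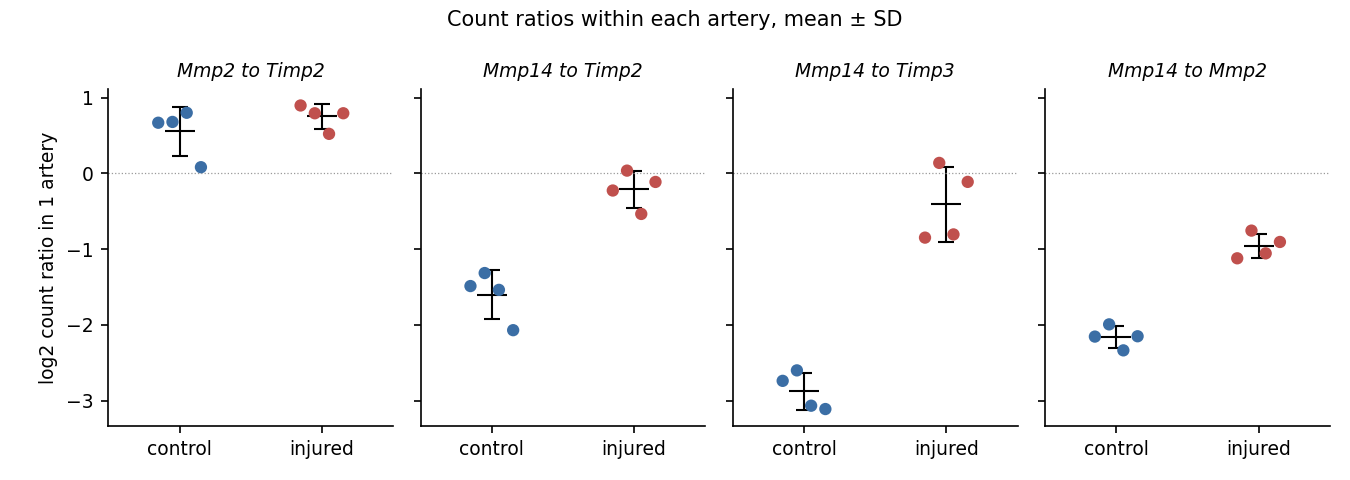
Log2 count ratios in each artery (blue, 4 control; red, 4 injured), with the group mean and SD in black. The ratios of Mmp14 to Timp2, Timp3 and Mmp2 are higher in every injured artery than in any control, and the ratio of Mmp2 to Timp2 overlaps.

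Of 12 other Mmp genes, 6 were tested and 1 was called, and their median log2FC was -0.15. Mmp25, a membrane-anchored MMP of leukocytes, had 0.139 to 0.574 CPM in the controls and 0.818 to 1.74 CPM after injury (log2FC 1.79 ± 0.48 SE, edgeR FDR 0.0379), without overlap but with at most 31 counts. Its call held when control artery 2 (2.14) or control artery 4 (1.92) was dropped and ended for each of the other 6 arteries (edgeR FDR 0.0692 to 0.1003). The membrane-type gene Mmp15 had 199 CPM in control artery 4 and 10.2 to 22.8 CPM in the other controls, against 52.9 to 197 CPM after injury (log2FC 0.77 ± 0.98 SE, edgeR FDR 0.632). Without control artery 4 its groups did not overlap and it was called, with means of 15.1 and 104 CPM and a log2FC of 2.79 (edgeR FDR 0.00567). That injured mean includes the 197 CPM of injured artery 3, while the other injured arteries were at 52.9 to 93.9 CPM. Mmp24, known from neurons, had 33.9 CPM in control artery 4 and 13.6 CPM in injured artery 3, and at most 3.61 CPM elsewhere, and its log2FC turned from -0.93 to 1.25 without control artery 4, called in neither fit. These are the 2 arteries with the most sympathetic neuron marker RNA, and also the 2 with the highest Mmp15. Its part in the values of Mmp15 and Mmp24 was not tested. Mmp16, Mmp17 and Mmp23 had log2FC values of -0.16, -0.42 and -0.15 and were not called.

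Of 16 matrix substrates, 15 were tested, 3 were higher and 1 was lower, with a median log2FC of 0.03. Acan, the cartilage proteoglycan aggrecan, had a log2FC of 6.20, Col10a1, a collagen of hypertrophic cartilage, 4.41 (5.96 without control artery 4) and Col4a1, of basement membranes, 1.09, whereas Dcn, the collagen-binding proteoglycan decorin, had -1.15. Eln, the elastin substrate of Mmp12, was at 7494 CPM in control artery 4, 20190.3 to 22441 CPM in the other controls and 27708 to 53649 CPM after injury. Its log2FC was 1.26 (edgeR FDR 0.0753), and without control artery 4 it was called at 1.003 (edgeR FDR 0.0145). The fibrillar collagens Col1a1, Col1a2 and Col3a1 had -0.22, -0.64 and -0.16, or -0.48, -0.92 and -0.43 without control artery 4, and were called in neither fit. Without that artery 4 substrates were higher and 1 lower, Eln and Col2a1 joining the higher ones and Col4a1 leaving them.

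Markers of several cell types also differed between injured and control arteries. Of 12 macrophage markers, 11 were higher, and their summed level was 247 to 365 CPM in the controls and 2117 to 3477 CPM after injury. Lyz2, the macrophage and granulocyte lysozyme, made up 945 to 1755 CPM of the injured sums, and the scavenger receptor gene Cd163 was the 1 marker not called, at 0.09. For neutrophils, 4 of 10 markers were tested and 3 were higher, with sums of 2.95 to 7.09 and 16.1 to 40.7 CPM. Csf3r and Fcgr3a, receptor genes, made up most of the injured sums, while the granule genes did not move alike: Mpo averaged 3.00 CPM in the controls and 0.27 CPM after injury, and Elane, Ltf, Camp and Ngp stayed at or below 0.41 CPM in every artery. For osteoclasts, which secrete Mmp9, all 4 tested of 7 markers were higher, with sums of 43.3 to 110.5 and 188 to 338 CPM. Ctsk made up 36.4 to 96.7 CPM of the control sums and 153 to 286 CPM of the injured sums. Dcstamp was at 0, and Calcr and Oscar reached at most 0.164 and 0.899 CPM in any artery. Of 12 chondrocyte and osteoblast markers, 4 were higher and 2 lower among 9 tested, their sums overlapped (125 to 379 and 104 to 284 CPM) and Matn1 was at 0. All 9 proliferation markers were higher, from 13.3 to 22.9 CPM in sum to 96.8 to 143 CPM. Of 9 skeletal muscle markers, 7 were higher, with sums of 84.5 to 253 and 304 to 1100.3 CPM. Contractile smooth muscle markers were lower for 7 of 10 and higher for 0, with sums of 18828 to 54585 and 11506 to 18102 CPM. Adventitial fibroblast markers gave 1 higher and 3 lower of 8 tested, with sums of 2009 to 3982 and 2053 to 3534 CPM. Endothelial markers gave 3 higher and 1 lower of 10, with sums of 956 to 2500.4 and 941 to 1348 CPM. None of the 6 tested sympathetic neuron markers was called. Without control artery 4 the counts were 2 higher for neutrophils, 9 lower for contractile smooth muscle, 5 higher and 2 lower for chondrocytes and osteoblasts, 2 higher and 1 lower for endothelium, 8 higher for proliferation and 2 higher for sympathetic neurons, and as above for the other lists of markers. In the order of this paragraph, from macrophages to sympathetic neurons, the median log2FC of the tested markers was 2.62, 3.30, 1.90, 2.30, 2.69, 5.86, -1.35, -0.18, 0.51 and -2.45. The -2.45 includes control artery 4, where these markers summed to 9908 CPM against at most 6.31 CPM in the other controls. It cannot be read as a fall, since without that artery 2 of the 6 were higher and 0 lower. The part of these cell types in the MMP values was not tested.

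For 5 members, the genes with the most similar profile over the 8 arteries were sought among 14018 genes, as the smallest root mean square difference of centred log2 CPM. Nearest to Mmp12 were Ccl9, a CC chemokine, at 0.504, Pla2g7, the lipoprotein-associated phospholipase A2, at 0.717, and Tnn, a tenascin, at 0.751, where the profile of Mmp12 itself varied by 3.81. Ccl9 at 0.707 was also nearest to Mmp9, followed by Itgb2, the beta chain of leukocyte integrins, at 0.740 and Il1rn, the interleukin-1 receptor antagonist, at 0.749. Nearest to Mmp14 were Apbb1ip, Cthrc1 and Tmem154, at 0.105 to 0.136. Nearest to Mmp2 were LOC100911299, the insulin receptor substrate Irs1 and the integrin chain Itgb5, at 0.0586 to 0.0862. LOC102548083, Cytl1 and Cyp2c22, with log2FC values of -4.20, -2.92 and -4.38, were nearest to Mmp27, at 0.534 to 0.651.

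**Figure D5:**
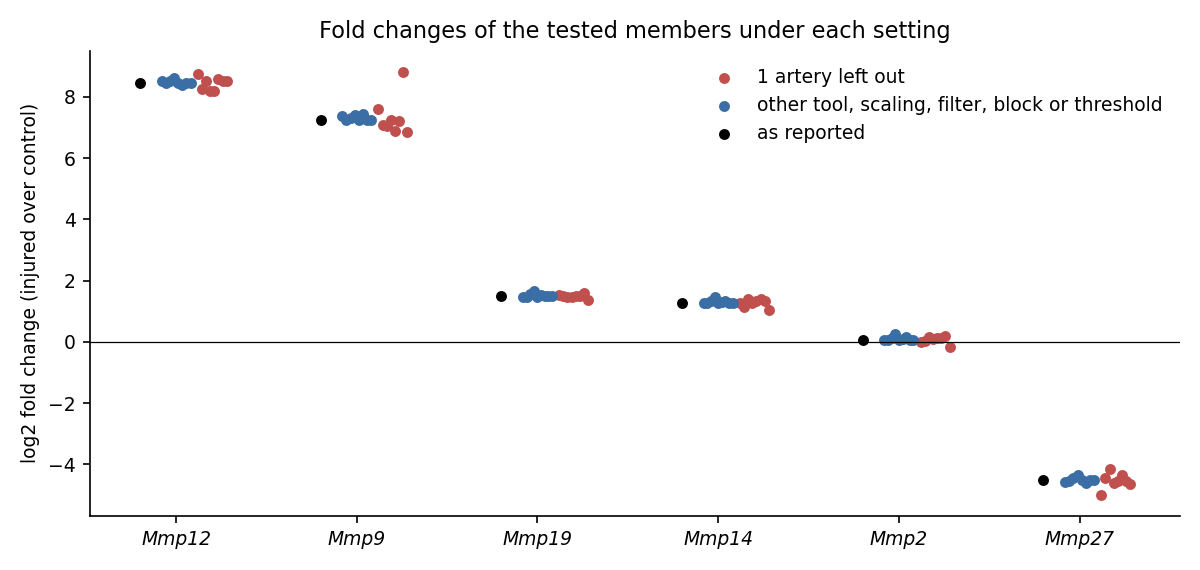
Log2 fold change of the 6 tested members as reported (black), under other tools, scalings, filters, the replicate block or thresholds (blue), and with 1 artery left out (red). Mmp12, Mmp9, Mmp19, Mmp14 and Mmp27 keep their sign at every point, and Mmp2 lies on both sides of 0, from -0.18 to 0.26.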

How the data were processed

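mRNA was sequenced from 4 injured and 4 control carotid arteries, and the authors deposited raw counts per gene, 1 column per artery. The submitters' processing notes name HISAT2 2.0.4. The counting tool, genome build, annotation and strand setting are not given in the sources used here, so reads of close paralogs such as Mmp3 and Mmp10, or of overlapping genes, may be split or dropped. The members, gene lists and tests were chosen with earlier results of these data known. The lists hold 177 symbols, of which 175 matched the table, 1 of them by a RefSeq synonym, while Ocstamp and Clec3b did not.

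In edgeR 4.0.16 (R 4.3.3), filterByExpr kept 14359 of 37209 genes. TMM factors and the quasi-likelihood test without covariates followed, with a fold change above 2 and an adjusted p under 0.05 as in the study's methods, which used DESeq. Standard errors were derived from the F statistic. No row was left without a gene name. Members removed by the filter were compared on log2(CPM + 0.5), and 0.5 was added to the counts of ratios. Of 5 planned ratios, Mmp9 to Timp1 was not computed because Timp1 is listed at 0, so 4 were adjusted together. The main edgeR fit, the edgeR fit with the replicate block and DESeq2 were tested on simulated counts, and the other alternatives were not. The study's methods speak of biological replicates, and the labels do not tie a replicate to a rat. Alternatives were DESeq2 1.42.0, RLE or upper-quartile factors, library totals only, no filter, a minimum of 10 counts in all arteries, replicate number as a block, each artery dropped in turn, the adjusted p as sole criterion, glmTreat against a fold change of 2, 1 added to counts of ratios and pseudocounts of 0.1 and 1. Genes named are the 10 members, Timp1 to Timp4, called genes of the lists (up to the 6 with the largest change) and the 3 nearest profiles of 5 members. Other names (Fos and its family, Furin, Cd44, Reck, Eln, Col2a1, Cd163 and the neutrophil markers, the fibrillar collagens, Tgfb1, Spp1, Mmp15 to Mmp17, Mmp23, Mmp24, the remaining genes of the chromosome 8 run, Dcun1d5, Smarcb1, Chchd10, Dcstamp, Matn1, Bgn and Syn1) were added after their values were seen. Tfpi2, Pcolce, A2m, Calcr and Oscar were also named after their values were seen. Intervals are exact binomial (Clopper-Pearson) and cover counting error only. Promoters came from RefSeq, build GRCr8.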

Additional observations from a re-analysis of the deposited data

Results flagged for a closer look

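In 45 groups of 4 arteries (MMP genes, Timp genes and the ratios, where values differed at all), 8 had an artery whose distance to the nearest of the others, as a share of the whole range, exceeded Dixon's 95% critical value for 4 samples. For independent groups chance gives about 1 in 20, but these groups share arteries, and a gene with counts in 1 of 4 arteries gives a share of 1 by construction, so the 8 cannot be read against that figure.

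In 4 of the 8 groups it was control artery 4 that stood apart. The share was 0.839 for Mmp14 (153 CPM, nearest control 377), 0.891 for Timp2 (644 CPM, nearest 1047), 0.933 for Mmp15 (199 CPM, nearest 22.8) and 0.929 for Mmp24 (33.9 CPM, nearest 3.61). Mmp14 and Timp2 were low in this artery, and Mmp15 and Mmp24 were high. It also had the sympathetic neuron marker sum of 9908 CPM, and the part of that RNA in these values was not tested. Among injured arteries, Mmp24 gave 0.851 (13.6 CPM in injured artery 3, nearest 3.52). Mmp13 gave 0.974 among injured arteries, through 9.43 CPM in injured artery 2. It gave 1 among the controls, where only control artery 3 had counts, 3 in number, and Mmp11 gave 1 among injured arteries through its single count.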

How the results depend on the processing

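Mmp12, Mmp9 and Mmp27 were called in all 8 fits with 1 artery dropped and in the 8 other alternatives that tested them, and Mmp19 in 8 of 9 others. These counts include the FDR alone, which is the main fit without the fold change criterion and keeps each call by construction. With at least 10 counts in each sample, 2 members were called, Mmp14 and Mmp19, because Mmp9, Mmp12 and Mmp27 were no longer tested. Against a fold change of 2, 3 members were called, and Mmp14 (edgeR FDR 0.747) and Mmp19 (0.0508) were not. Over all genes, 1562 were called, 1007 with at least 10 counts in each sample, 2468 by the FDR alone, 661 against a fold change of 2, and 1142 to 2398 with 1 artery dropped, the highest without control artery 4. The 369 lower calls became 581 without control artery 4, 227 without control artery 2, 200 without injured artery 2 and 197 without injured artery 4, and the 1193 higher calls 1817 without control artery 4. Mmp2, not called in any fit, ranged from -0.18 to 0.20 in log2FC with 1 artery dropped, and was at -0.0091 without injured artery 1 and -0.18 without control artery 4. Timp2 turned to 0.12 with library totals only, a scaling that moved the median of all genes by 0.175. Only the scaling differed from the main fit, and why the scalings differ was not tested. Mmp3, with a difference of 1.31 to 2.66 in mean log2(CPM + 0.5) when 1 artery was dropped, had an exact permutation p of 0.0286 only without injured artery 1.

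Same-numbered arteries did not deviate together in every pair (correlations of 0.301, 0.450, -0.520 and -0.416 for numbers 1 to 4), and 2 of 4 injured arteries correlated best with their own number. The highest value, 0.784, was that of injured artery 3 with control artery 4, the 2 arteries with the most sympathetic neuron marker RNA. The part of that RNA in these correlations was not tested. With the replicate block 1187 genes were called, the 4 members other than Mmp14 (log2FC 1.35, edgeR FDR 0.0631) kept their calls, and Timp3, Timp4 and Mmp25 lost theirs. For the ratios of Mmp14 to Timp2, Timp3 and Mmp2, an exact sign-flip test of same-numbered differences (1.39, 2.47 and 1.20) gave an adjusted p of 0.167, where 4 pairs allow no unadjusted p below 0.125. With 1 artery dropped the 3 differences were 1.24 to 1.502, 2.29 to 2.62 and 1.13 to 1.25, and since the groups do not overlap their exact p stays at the smallest possible, which says nothing on stability. The low counts of Mmp3, Mmp8, Mmp11 and Mmp13 limit what can be said of them.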

Other observations

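Several genes, some of which arteries are known to express, were listed at or near 0 in every library. Timp1 and Syn1, whose spans overlap in the RefSeq annotation of GRCr8, were at 0 in all 8 arteries, as was Bgn, which encodes the matrix proteoglycan biglycan. Smarcb1 had at most 3 counts and Mmp11, its neighbour, at most 1. Chchd10, the gene on the other side of Mmp11, was not near 0 throughout and reached 57 counts. In all, 13762 of 37209 genes had no count in any artery. How the reads were counted is not given in the sources used here, and the reason for these values was not tested.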
